A study of Caenorhabditis elegans with 2 samples.

Results

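The Hox genes of Caenorhabditis elegans are 6 homeobox genes on chromosome III: ceh-13, lin-39, mab-5, egl-5, nob-1 and php-3. They were followed here in a ChIP-seq map of UNC-55, one of the COUP-TF class of nuclear receptors. Each gene was taken with its annotated body plus 7 kb on each side (Ensembl annotation of WBcel235, the build of the ce11 coordinates), and every region of the deposited ce11 lists that shared at least 1 base with this window was read out. All 6 were found among the 19973 nuclear protein-coding genes of the annotation. Of the 2511 regions in the authors' IDR set, described below, 13 lay in their windows, and replicate 1 overlapped 8 of these. Both samples, biological replicates 1 and 2, were whole late embryos of mixed sex from strain NC1639. That strain carries wdIs49 on chromosome III, an integrated construct of the ttr-39 promoter, UNC-55a and GFP with dpy-20+. No other group was made, so nothing was compared between genotypes, and all regions come from embryos that carry the construct. One label names the antibody by its target unc-55, while a note gives the tag as GFP with FLAG, so it is unclear which epitope was pulled down. The material was whole embryos, so the cells in which a region was bound cannot be told apart. The construct also makes UNC-55 wherever its promoter is active, and which of those cells normally hold the receptor was not tested.

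Hox genes encode homeodomain transcription factors that give cells their identity along the anterior-posterior axis. They often bind DNA together with TALE homeodomain partners of the PBC and MEIS classes. In C. elegans, ceh-13 is the anterior gene, related to Drosophila labial. The mid-body genes are lin-39, which acts in the vulval precursor cells and central ventral cord, and mab-5, which acts farther back, for example in the migration of the QL neuroblast descendants. The posterior genes egl-5, nob-1 and php-3 belong to the Abdominal-B class. UNC-55 is best known in the VD class of GABA motor neurons, where it keeps the synaptic pattern of the DD class from forming. The ttr-39 promoter has been used to drive expression in these D-type neurons. Whether VD neurons were present in these late embryos, or any region was bound in D-type neurons, was not tested.

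The lists held 3577 regions for replicate 1, 30000 for replicate 2, 30000 for the pooled data, and 2511 in the set that the authors kept by IDR, the irreproducible discovery rate, which scores how far the order of regions repeats between lists. The IDR set had the same bounds as 2511 regions of the pooled list. Replicate 2's list overlapped 2510 of them and replicate 1's 770, or 30.7% (95% Wilson interval 28.9 to 32.5). Each region has a signal value from the authors' peak caller against a control, which is used here only to rank regions within a list. Read depth is unknown.

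Sequences at the bound genes are shown first: the 4 strongest regions of ceh-13, the 2 strongest of lin-39, and the strongest of mab-5 with the mab-5 region that both replicates held. Each is taken from the WBcel235 genome on the forward strand of chromosome III, within 100 bp of an IDR summit. Capitals mark 6 short motifs searched on both strands: AGGTCA, the half-site of COUP-TF receptors; GAGAGA and ACGCAG, which are frequent in the whole IDR set; TGATNNAT, a form of the joint HOX and PBC site; TGACAG, the MEIS core; and TAATTA, a homeodomain core. Neighbouring matches run together, and runs such as TCTCTCTC hold several overlapping copies of GAGAGA. The first 4 lie around ceh-13, which is on the forward strand.

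ceh-13, upstream, IDR rank 355, chrIII:7549058-7549258: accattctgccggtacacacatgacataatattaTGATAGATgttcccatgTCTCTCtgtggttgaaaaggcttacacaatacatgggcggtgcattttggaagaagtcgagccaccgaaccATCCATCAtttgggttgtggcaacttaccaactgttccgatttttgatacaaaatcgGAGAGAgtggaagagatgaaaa
ceh-13, promoter, IDR rank 52, chrIII:7554790-7554990: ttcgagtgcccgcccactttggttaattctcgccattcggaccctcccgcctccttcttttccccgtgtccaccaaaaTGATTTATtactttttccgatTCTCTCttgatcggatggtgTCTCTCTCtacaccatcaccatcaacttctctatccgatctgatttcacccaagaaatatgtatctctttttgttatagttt
ceh-13, promoter, IDR rank 326, chrIII:7554995-7555195: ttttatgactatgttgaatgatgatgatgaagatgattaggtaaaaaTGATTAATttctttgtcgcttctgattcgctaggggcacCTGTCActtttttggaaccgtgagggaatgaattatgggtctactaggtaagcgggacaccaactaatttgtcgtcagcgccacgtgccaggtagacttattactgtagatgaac
ceh-13, downstream, IDR rank 27, chrIII:7559945-7560145: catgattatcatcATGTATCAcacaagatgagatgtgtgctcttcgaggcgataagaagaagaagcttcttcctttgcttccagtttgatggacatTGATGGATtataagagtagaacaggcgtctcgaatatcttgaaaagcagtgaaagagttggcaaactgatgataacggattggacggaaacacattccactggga

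The next 4 lie at lin-39 and mab-5, which are on the reverse strand. The first is the part of the strongest lin-39 window that lies upstream of an internal transcript start at 7534805. It leaves out the exon of the shorter transcript, where the 1 TGATNNAT match of that window lies, and is intronic in the longer transcript.

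lin-39, before the internal start, IDR rank 150, chrIII:7534806-7534918: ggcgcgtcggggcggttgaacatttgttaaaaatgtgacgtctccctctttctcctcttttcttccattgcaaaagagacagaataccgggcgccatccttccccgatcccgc
lin-39, intron, IDR rank 494, chrIII:7531557-7531757: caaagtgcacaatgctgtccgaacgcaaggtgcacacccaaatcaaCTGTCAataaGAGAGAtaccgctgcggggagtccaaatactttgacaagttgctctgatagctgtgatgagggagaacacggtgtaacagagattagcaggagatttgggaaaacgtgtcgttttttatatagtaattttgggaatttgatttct
mab-5, intron, IDR rank 753, chrIII:7780646-7780846: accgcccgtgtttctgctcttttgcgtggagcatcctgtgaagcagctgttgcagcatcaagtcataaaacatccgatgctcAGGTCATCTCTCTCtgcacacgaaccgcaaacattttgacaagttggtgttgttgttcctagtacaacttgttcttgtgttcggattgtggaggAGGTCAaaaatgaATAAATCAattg
mab-5, promoter, IDR rank 1917, chrIII:7784268-7784468: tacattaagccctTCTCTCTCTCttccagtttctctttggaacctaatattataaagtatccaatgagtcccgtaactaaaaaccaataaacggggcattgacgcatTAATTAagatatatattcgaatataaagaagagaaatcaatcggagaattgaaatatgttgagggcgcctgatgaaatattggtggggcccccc

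The anterior and mid-body genes carried all 13 regions. There were 6 at ceh-13, 4 at lin-39 and 3 at mab-5, against 0 at egl-5, 0 at nob-1 and 0 at php-3. Of all protein-coding genes, 30.0% had at least 1 IDR region in the same kind of window, so 3 of 6 genes is not by itself a result about the Hox genes. The number of regions at the bound genes stood higher in that distribution. At least 3 IDR regions were found at 2.49% of protein-coding genes and at 3 of the 6 Hox genes. Among the 5983 protein-coding genes with at least 1 region, 498 had at least 3. The cutoffs of 3 and 6 used here are the counts of mab-5 and ceh-13 themselves. At least 6 were found at 0.0651%, and ceh-13 was among these 13 genes. The windows of the Hox genes, 16.4 to 22.0 kb long, were longer than the median of 16.0 kb. Per kb, ceh-13 had 0.366 IDR regions, the sixth highest density of all protein-coding genes, lin-39 had 0.182 and mab-5 0.145, against a mean of 0.0239 and a 99th percentile of 0.187. Neighbouring genes share regions, so such genes are not independent. No test was made over the 6 genes, which were chosen with results of these data known.

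**Figure D1:**
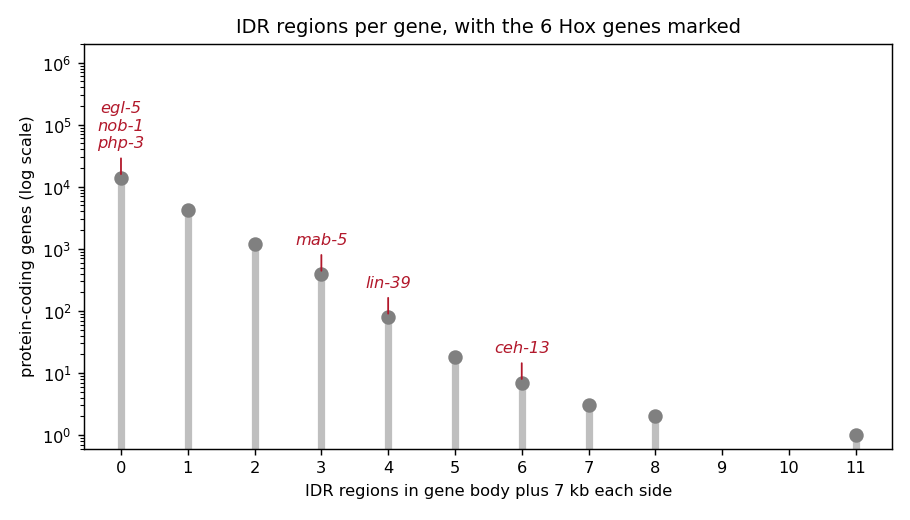
Number of IDR regions in the gene body plus 7 kb on each side (x axis) against the number of protein-coding genes with that count (y axis, log scale), for 19973 genes, with the 6 Hox genes marked. The gene ceh-13 stands at 6, lin-39 at 4 and mab-5 at 3, and egl-5, nob-1 and php-3 stand at 0.

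The anterior gene ceh-13 (WBGene00000437, III from 7555660 to 7558041) had 2 of the 100 strongest regions of the whole set. Of all protein-coding genes, 1.41% had such a region in their window, and ceh-13 was the 1 Hox gene that did. Its promoter region lay on III from 7554750 to 7554986 with the summit at -770 bp from the transcript start. The signal value there was 96.2 (rank 52 of the IDR set), and the overlapping regions stood at rank 14 (replicate 1) and rank 56 (replicate 2). It was near the top of both lists. In the sequence of its summit window above, TGATTTAT is followed by GAGAGA copies read on the reverse strand.

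A second ceh-13 summit lay at -565 bp, so the pair was 205 bp apart. This region ran from 7555032 to 7555135 with a signal value of 59.2 (rank 326). It overlapped rank 361 in replicate 1 and rank 738 in replicate 2. Farther upstream, the region from 7548978 to 7549337, with its summit at -6502 bp, had a signal value of 57.3 (rank 355) and overlapped rank 574 in replicate 1 and rank 398 in replicate 2. These 3 upstream regions were in both replicate lists at ranks under 1000, unlike the fourth upstream region, at -1788 bp, described below with those behind the gene.

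The strongest ceh-13 region, by signal value, lay behind the gene. It ran from 7559995 to 7560162, had a signal value of 112.6 (rank 27), and its summit was at 4385 bp from the start of ceh-13. The nearest transcript start was that of lgc-12, which encodes a ligand-gated ion channel subunit. The summit lay at -2127 bp from it, so the region could also be assigned to lgc-12. The replicates placed it differently. It was rank 26 in replicate 2 and rank 3354 of 3577 in replicate 1, where its signal value was 2.13. The remaining ceh-13 regions, with summits at -1788 bp (signal value 27.5, rank 1958) and 3266 bp (47.9, rank 566), overlapped no region of replicate 1. In replicate 2 they overlapped ranks 1999 and 465. For the region at 3266 bp the nearest transcript start was again that of lgc-12, with the summit at -3246 bp from it. Each of the 6 summits was intergenic, and none lay inside the ceh-13 gene body.

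**Figure D2:**
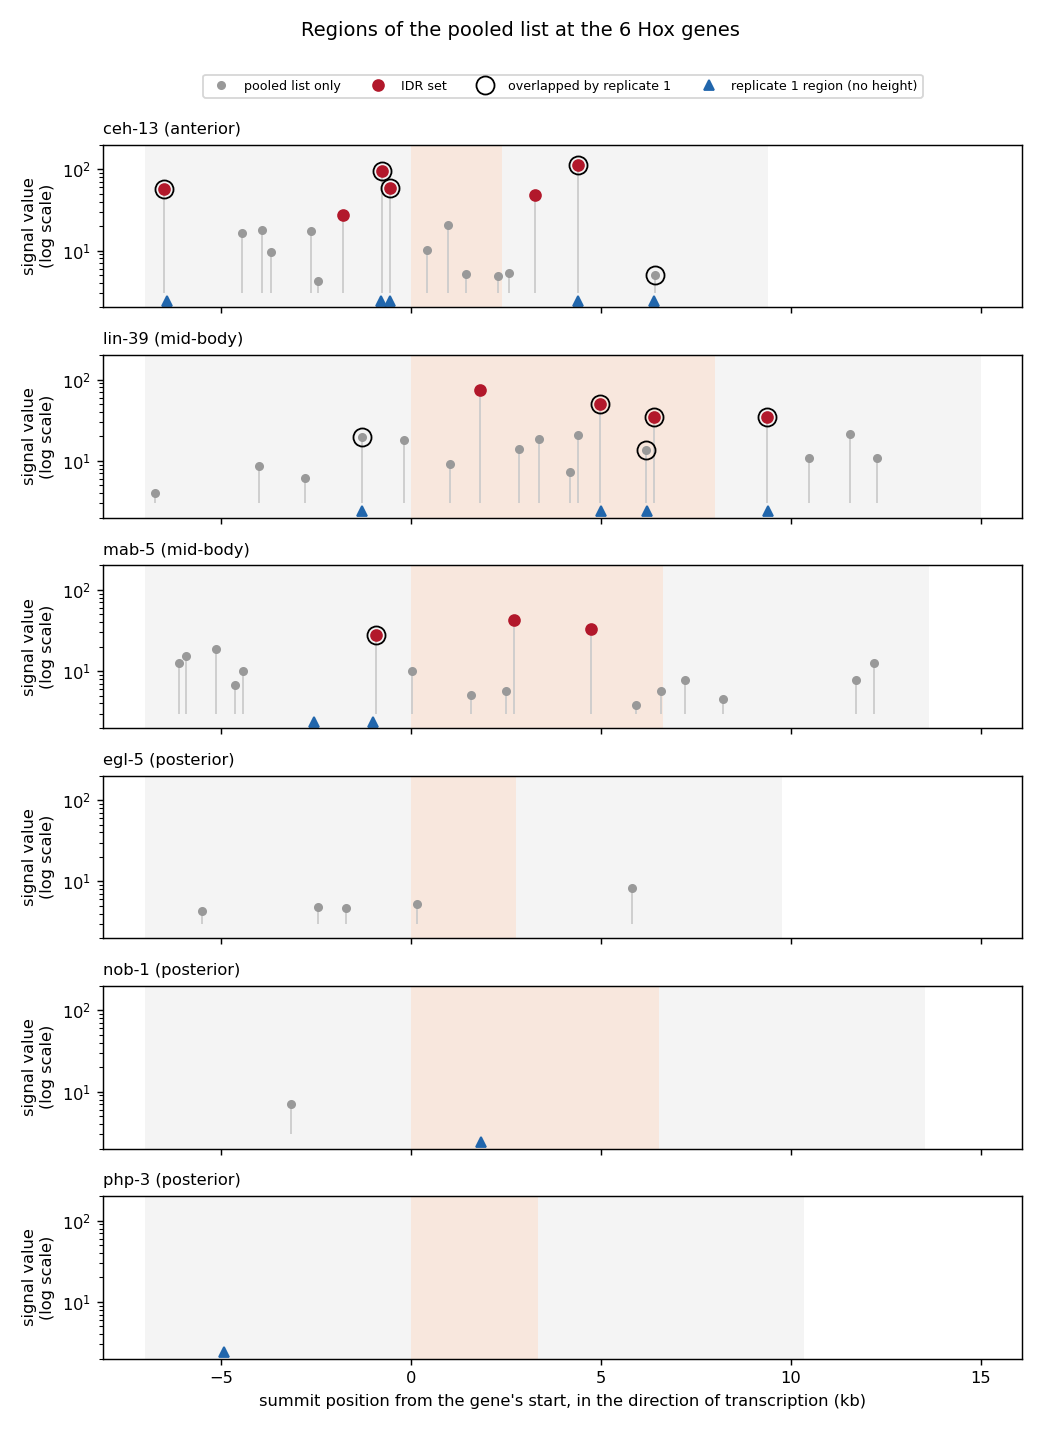
Regions of the pooled list at each Hox gene: summit position from the gene's start in the direction of transcription (x axis, kb) and signal value (y axis, log scale). Red points are IDR regions, grey points are other pooled regions, rings mark overlap with replicate 1, triangles mark the regions of replicate 1 without height, the shaded middle is the gene and the pale band the window. The red points number 6, 4 and 3 in the upper panels and 0 in the lower 3.

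The mid-body gene lin-39 (WBGene00003024, III from 7528641 to 7536632, reverse strand) had 3 of the 4 regions of its window inside the gene. With 10 kb flanks it had 7 regions, 3 of them inside. Its strongest region ran from 7534767 to 7534866, with a signal value of 73.7 (rank 150). The summit lay 1814 bp into the gene and at -13 bp from the start of the shorter annotated transcript. Replicate 2 held it at rank 137, and replicate 1 held no overlapping region. This start is the reason that lin-39 counted as bound in a promoter window: the summits did not lie near the start of the longer transcript, where the pooled list had a weaker region at -197 bp (signal value 17.9, pooled rank 3923), outside the IDR set.

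The other intronic lin-39 regions were found in both replicates. The region from 7531477 to 7531836 had a signal value of 50.4 (rank 494), with rank 634 in replicate 1 and rank 595 in replicate 2. The region from 7530058 to 7530417 had a signal value of 34.7 (rank 1235), with rank 786 in replicate 1 and rank 1144 in replicate 2. For the latter, the replicate 1 summit was 175 bp away. The fourth region ran from 7527090 to 7527449, downstream of the gene, with a signal value of 34.4 (rank 1254) and ranks 1362 and 1932 in replicates 1 and 2. Its summit was 9362 bp from the lin-39 start, and the nearest transcript start was that of lig-4, which encodes a DNA ligase.

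The mid-body gene mab-5 (WBGene00003102, III from 7776835 to 7783454, reverse strand) had weaker regions. The promoter region, from 7784188 to 7784547 with its summit at -914 bp, had a signal value of 27.9 (rank 1917). It overlapped rank 2851 in replicate 1 and rank 2504 in replicate 2, so it was the 1 mab-5 region found in both replicates, and in replicate 1 it stood low, among 3577 regions. The replicate 1 summit was 102 bp away, at -1016 bp, just outside the promoter window. The intronic regions from 7780566 to 7780925 (signal value 42.8, rank 753) and from 7778528 to 7778887 (33.4, rank 1352) were at ranks 806 and 1265 in replicate 2 and overlapped no region of replicate 1. The nearest transcript start to the latter was that of bath-15. When replicate 1's 2511 strongest regions were used alone, mab-5 had 0 regions.

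**Figure D3:**
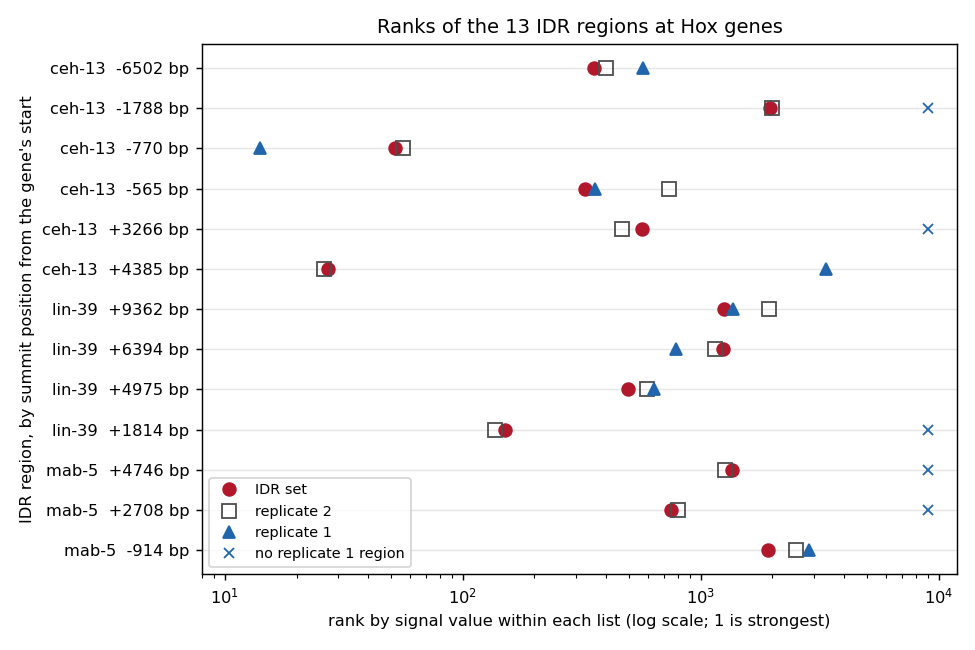
Rank by signal value (x axis, log scale, 1 is strongest) of each of the 13 IDR regions at Hox genes (y axis, by summit position from the gene's start) in the IDR set, replicate 2 and replicate 1, with crosses where replicate 1 had no region. The ceh-13 region at -770 bp stands at ranks 52, 56 and 14, while the one at 4385 bp stands at ranks 27, 26 and 3354.

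The posterior gene egl-5 (WBGene00001174, III from 7814374 to 7817141) had no IDR region and no region of replicate 1. Its pooled list held 5 regions with signal values from 4.29 to 8.24 and ranks from 11166 to 26786. The authors label the whole pooled list as peaks and background. Replicate 2 overlapped 3 of them. The nearest IDR region was the mab-5 promoter region, 29827 bp from the egl-5 body. With 0.298 pooled regions per kb, egl-5 was close to the median of 0.264 over all protein-coding genes.

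The posterior paralogs nob-1 (WBGene00003779, III from 12077793 to 12084316) and php-3 (WBGene00004024, III from 12074218 to 12077556) lie next to each other, apart from the other 4 genes, and their windows overlap. The nob-1 window held 1 pooled region, at -3156 bp, with a signal value of 6.98 (pooled rank 14260). That of php-3 held 0. Windows with at most 1 pooled region were found at 18.1% of protein-coding genes and windows with 0 at 8.46%, so these low counts were shared with many genes. Replicate 1 alone had a region in both windows, from 12082345 to 12082628 in an intron of nob-1, with a signal value of 2.80 (rank 1707 of 3577). No region of replicate 2, pooled or IDR list overlapped it. At least 1 replicate 1 region was found at 42.1% of protein-coding genes and at 5 of the 6 Hox genes, of which nob-1 and php-3 share theirs. Between pooled regions, the stretch that contains php-3 ran from 12065539 to 12087291, or 21.8 kb, against a median gap of 1544 bp. There were 413 gaps of this length or longer among 26986. The nearest IDR region to nob-1 was 35321 bp from its body, near lron-12.

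Support from replicate 1 was then counted over all 13 regions. Replicate 1 overlapped 8 of 13, or 61.5% (95% Wilson interval 35.5 to 82.3, counting error over regions only), against 30.7% of all IDR regions. These were 4 at ceh-13, 3 at lin-39 and 1 at mab-5. Replicate 2 overlapped all 13. The comparison with all IDR regions is unlike in strength. Among the 1255 strongest IDR regions lay 10 of the 13, and replicate 1 overlapped 7 of these. The share that replicate 1 overlapped among all of those strongest regions was not computed. At least 1 IDR region overlapped by replicate 1 was found at 10.7% of protein-coding genes and at 3 of the 6 Hox genes, and at least 3 were found at 0.240%, ceh-13 and lin-39 among them. The overlapping regions of replicate 1 had summits within 100 bp for 6 of the 8.

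On either side of the authors' threshold, regions were read by signal value. The weakest IDR regions in the windows were at ceh-13 (27.5) and mab-5 (27.9), above the lowest value of the set, 23.8. The strongest pooled regions outside it were at lin-39, with its summit at 11564 bp from the start (signal value 21.3, pooled rank 3014), in the lin-39 intron at 4403 bp (20.8), and in a ceh-13 intron at 959 bp (20.7). Below the threshold, 2 pooled regions were found in both replicates, both at lin-39. The first was upstream at -1299 bp (signal value 19.8, pooled rank 3366, rank 2254 in replicate 1). The second was in the intron at 6183 bp (13.7, pooled rank 5648) and overlaps the same replicate 1 region, of rank 786, as the IDR region beside it.

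The pooled list was also denser at the anterior and mid-body genes than at the posterior ones. Outside the IDR set it held 11 regions at ceh-13, 14 at lin-39 and 14 at mab-5, against 5, 1 and 0 at egl-5, nob-1 and php-3, so among these weaker regions ceh-13 did not lead. With the IDR regions included there were 17, 18 and 17 at the first 3 genes. Per kb this was 1.04 at ceh-13, 0.819 at lin-39 and 0.824 at mab-5, and 99.9%, 98.5% and 98.7% of protein-coding genes had a density as low or lower. For genes in the surroundings, the Hox genes included, the share with an IDR region was counted instead. Within 500 kb of lin-39 and ceh-13, 52.3% of 237 protein-coding genes had an IDR region, and within 500 kb of mab-5 and egl-5, in a stretch that overlaps the first, 53.0% of 234. Around nob-1 and php-3 it was 24.2% of 149. In these stretches, in the same order, the pooled list held 0.336, 0.375 and 0.261 regions per kb. The stretches of the main cluster ran on III from 7028641 to 8058041 and from 7276835 to 8317141. Most of each is shared, so their shares could hardly differ and say little about egl-5 in particular.

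The space between lin-39 and ceh-13 was counted as well. These genes are transcribed away from each other and are separated by 19.03 kb with no other protein-coding gene. The interval held 6 IDR summits, of which 4 were overlapped by replicate 1. A pair of them lay outside both 7 kb windows, at 7544380 (signal value 49.5, rank 516, rank 954 in replicate 1) and at 7545395 (29.6, rank 1700, not in replicate 1). By nearest start both belong to lin-39, at -7748 and -8763 bp. The rest of the 6 were already counted in the ceh-13 window. Intervals between genes other than Hox genes were not counted. The interval between mab-5 and egl-5, 30.9 kb with cyk-7 in it, held 1 IDR summit, at the mab-5 promoter. There were 18 pooled summits in the former interval and 16 in the latter.

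By position, 8 of the 13 summits were intergenic and 5 were in introns, with 0 in coding exons and 0 in untranslated exons. These shares were not computed over all IDR summits, so the counts only describe the 13 regions. In replicate 2, the summit of the strongest lin-39 region lay 29 bp past the internal start, in an untranslated exon. In promoter windows, which reach 1000 bp before and 200 bp past a transcript start, there were summits at 3 of the 6 genes, against 7.34% of protein-coding genes. These were the pair at ceh-13, the one at the internal start of lin-39 and the one at mab-5. Regions narrower than the usual 360 bp numbered 4 of 13, among them the 4 strongest, against 4.26% of all IDR regions and 68.0% of those ranked 1 to 100.

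The sequence around the summits was described next, with no test. The letters TGATNNAT lay within 100 bp of 8 of the 13 summits, or 61.5% (35.5 to 82.3), against 20.5% of all 2511 IDR summits and 17.0% of the 2511 weakest pooled regions. They were at 5 of 6 ceh-13 summits, 2 of 4 at lin-39 and 1 of 3 at mab-5. In the ceh-13 sequences above they read TGATAGAT and ATCCATCA (rank 355), TGATTTAT (rank 52), TGATTAAT (rank 326), and ATGTATCA and TGATGGAT (rank 27), the forms that start with A being matches on the reverse strand. Beside this stands the level of the same letters in the whole windows, bound or not: 1.28 matches per kb at ceh-13, 1.68 at lin-39 and 1.503 at mab-5, against 0.537 at egl-5, 1.12 at nob-1, 0.923 at php-3 and a median of 0.942 over all protein-coding genes. The part of this density in the share at summits was not tested.

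Matches to TGACAG were at 4 of 13 summits (30.8%, 12.7 to 57.6), against 15.2% of all IDR summits. GAGAGA was at 6 of 13 (46.2%, 23.2 to 70.9), against 51.6%. ACGCAG was at 0 of 13, which allows a share of up to 23.1%, against 27.4% of all IDR summits. The receptor half-site AGGTCA was at 1 of 13 (7.69%, 1.37 to 33.3), against 6.33%. That summit was in the mab-5 intron (rank 753), where the letters occur at 2 positions, shown above. TAATTA was at 2 of 13, both at mab-5 (15.4%, 4.33 to 42.2), against 4.86%. With 13 summits, some close together, the intervals are wide, cover counting error only and are no test. For all motifs except ACGCAG and TGATNNAT they include the share in all IDR summits. The TGATNNAT share varied with the setting. It was 5 of 13 (38.5%) within 50 bp and 10 of 13 (76.9%) within 150 bp. Among the stronger IDR regions it was 7 of 10 (70.0%), and among the strongest regions of replicate 1 alone 4 of 9 (44.4%). The share of all IDR summits was not computed in these settings. The mean GC content of the 13 windows was 42.3% ± 4.36 (SD over 13 windows), against 44.6% ± 6.13 over all IDR summits. Over whole windows, GC content was 33.6% at ceh-13, 34.8% at lin-39 and 33.8% at mab-5, and 34.4%, 36.3% and 37.05% at egl-5, nob-1 and php-3.

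Genes that act with, before or after the Hox genes were set beside them, with the same windows and the 30.0% of all protein-coding genes as background. Of 5 genes for TALE partners, 3 had an IDR region. The MEIS gene unc-62 had 11, the most of any protein-coding gene, and 9 of these were overlapped by replicate 1. The PBC gene ceh-20 had 1, at rank 5 with a signal value of 224.6, in its promoter window and overlapped by replicate 1. The PBC gene ceh-40 had 1, at rank 1296 with a signal value of 34.0 and not overlapped by replicate 1. The PBC gene ceh-60 and psa-3, a MEIS-related gene, had 0. The counts of the 5 genes thus ran from 0 to 11, and those of the Hox genes from 0 to 6.

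Of 9 signals and fate factors upstream of Hox genes, 5 had an IDR region and 0 had one overlapped by replicate 1, against 10.7% of all protein-coding genes. They included pry-1, which encodes an Axin homologue of the Wnt pathway, the TCF gene pop-1 (rank 708, signal value 43.9) and the ETS factor gene lin-1 (rank 990, 38.4). The gene pry-1 had 2 regions, the stronger at rank 317 with a signal value of 59.98. A summit lay in its promoter window, but which of the 2 regions it belongs to was not read out. The Wnt gene egl-20, which switches on mab-5 in the QL neuroblast, had 0, as had lin-31, the Caudal homologue pal-1 and the Even-skipped homologue vab-7. The genes mig-14 and bar-1 had 1 and 2.

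Of 8 chromatin regulators of Hox genes, 6 had an IDR region and the same 6 had a summit in a promoter window, against the 7.34% of all protein-coding genes given above. The strongest was at sor-1, which keeps Hox genes silent (3 regions, rank 45, signal value 100.8). The gene egl-27, related to the MTA component of histone deacetylase complexes, had 8 regions, led by rank 415 (53.9), with 1 overlapped by replicate 1. The best region of lin-49 was at rank 347 (57.6), that of lin-59 at rank 1185 (35.4), that of sop-2 at rank 1806 (28.7) and that of mes-2, the E(z) homologue, at rank 2197 (25.7). The Polycomb-class genes mes-3 and mes-6 had 0. Of 4 reported targets, mig-13, which acts in neuroblast migration, had 4 regions, led by rank 752 (42.9), and hlh-8, egl-1 and psa-3 had 0.

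**Figure D4:**
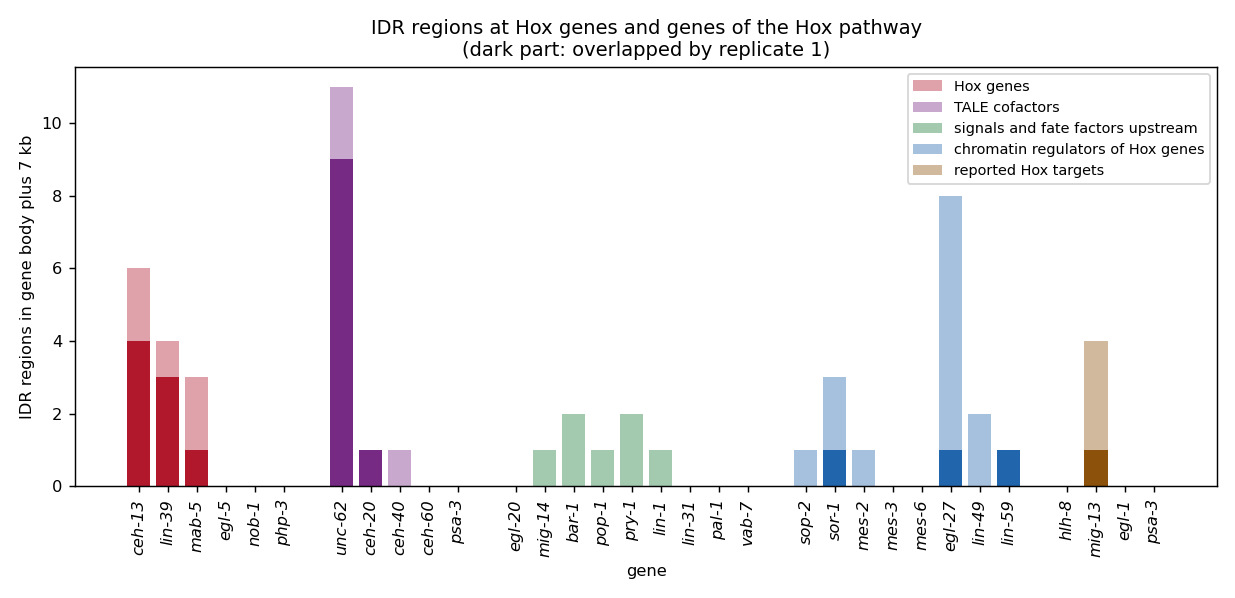
Number of IDR regions in the gene body plus 7 kb (y axis) for the 6 Hox genes and the genes of 4 Hox pathway lists (x axis); psa-3 is in 2 lists. Each bar is the full count and its dark part those overlapped by replicate 1, as for ceh-13 with 6 and 4 and for unc-62 with 11 and 9.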

How the data were processed

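ChIP-seq peak lists of 2 biological replicates of whole late embryos were used, in ce11 coordinates. Per the text files deposited beside them, the calls used a control for each replicate and for the pooled alignments, and the IDR set was derived from these 3 lists. The sources used here do not name the peak caller or aligner. The signal value, deposited by the authors' processing, is not scaled between lists and served to rank regions inside each list. The deposited q-value, as −log10, was 4.02 for every IDR region and was not used for ranking. Reads were not analysed here, so depth is unknown, and intervals (95%, Wilson) cover counting error over regions only.

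Windows, overlaps of at least 1 base, nearest protein-coding transcript starts and motifs within 100 bp of a summit were computed with Python 3.11.15, pandas 2.3.3 and scipy 1.17.1 from the Ensembl release 115 annotation and the RefSeq WBcel235 sequence, and the counting steps were tested on simulated data. All regions ended within the chromosomes of that build. The members and lists were chosen with earlier results of these data known, so no test was made over them. Named genes were the 6 Hox genes, the pathway lists, and genes whose start was nearest to an IDR region in a Hox window, apart from lron-12, cyk-7 and the genes with the most IDR regions in the closing section, named after their values were seen. The replicates form 1 group, and alternatives were other flanks, overlaps, promoter windows, thresholds and each replicate alone. The ce10 lists were not used here.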

Additional observations from a re-analysis of the deposited data

How the results depend on the processing

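The counts of 0 at egl-5, and of 6, 4 and 3 at ceh-13, lin-39 and mab-5, held within 1.5 times under most alternatives. In all, 103 values stayed within that range or within their interval and 13 moved beyond it. Many of the 103 had little room to move, so the tally does not measure robustness. The strongest regions of replicate 2 alone gave the same value throughout. Counts of 0 stay 0 in narrower windows, and motif shares were set against wide intervals. With flanks of 10 kb, lin-39 had 7 regions. With no flank, the windows held 5 regions, ceh-13 had 0, and replicate 1 overlapped 2 regions at 1 gene; by construction such windows leave out the intergenic regions. Among the 1255 strongest IDR regions, mab-5 had 1 region and TAATTA was at 0.0% of the summits. With promoter windows from 500 bp upstream to 100 bp downstream, 1 Hox gene had a summit. With 1 replicate left out, using the 2511 strongest regions of the other, the counts ranged from 9 to 13 regions, from 0 to 3 at mab-5, from 0 to 1 at nob-1, from 0 to 1 at php-3, from 1 to 3 genes with a promoter summit, and from 0.0% to 7.69% of summits with AGGTCA; the lower value for mab-5 and the promoter and the higher for nob-1 and php-3 came from replicate 1 alone. Counting summits within 300 bp once, an alternative chosen after seeing the data, gave 12 regions and 5 at ceh-13. No paired analysis was possible because the samples form 1 group.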

Other observations

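Of the 13 protein-coding genes with at least 6 IDR regions in their windows, ceh-13 shared its count of 6 with T23G4.2, Y54G11A.2, T28F12.1, T28F4.1, M03F4.6 and zfp-1, and was exceeded by unc-62 (11), tlp-1 and egl-27 (8 each), and hmg-1.1, T23G4.127 and cam-1 (7 each). The gene tlp-1 encodes a zinc finger protein that acts in tail morphogenesis, and cam-1 a receptor tyrosine kinase of the Ror class. At tlp-1, 5 of 8 regions were overlapped by replicate 1, at cam-1 1 of 7 and at zfp-1 6 of 6. These genes were named after their counts were seen; windows of neighbouring genes can share regions.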
